A study of Mus musculus with 2 samples.

Results

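Among cells sorted as cardiac macrophages, a small set of barcodes carried the collagen transcripts of fibroblasts, and these fibroblast-like barcodes are described here. They were chosen by measured values: a barcode, which stands for 1 droplet, was a member when it held no fewer than 1000 unique molecular identifiers (UMIs, each counting 1 captured transcript) and 500 genes, when mitochondrial genes gave no more than 10% of its UMIs, and when *Col1a1*, *Col1a2*, *Col3a1* and *Dcn* together made up at least 0.3% of its UMIs. By this rule 231 of 16024 barcodes kept by the first 3 limits were members, 76 of 7930 in the library labelled CD40 KO and 155 of 8094 in the WT library. The study sorted CD45+CD11b+CD64+ mononuclear cells from the infarct and border zones of mouse hearts 3 days after myocardial infarction and sequenced them with the 10x Genomics 3′ v3 chemistry. Both groups were infarcted, and each is 1 library. The labels do not state the knockout allele, the strain, age or sex of the mice, or how many hearts went into a library, and no uninjured heart was analysed here. With 1 library per group there is no test between the groups: intervals are 95% exact intervals that cover counting error only, and genotype, library and sort cannot be told apart.

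Cardiac fibroblasts build and renew the collagen network of the heart wall. After infarction they first take on an inflammatory state in which they release chemokines and cytokines, then divide, and later become myofibroblasts, which carry smooth muscle actin and lay down scar matrix. They exchange signals with the macrophages that clear the infarct. CD40 is a receptor of the tumour necrosis factor receptor family that many myeloid and some stromal cells carry, and it signals through TRAF adaptors to NF-kB.

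Members made up 0.958% of kept barcodes in the library labelled CD40 KO (0.756% to 1.20%) and 1.92% in the WT library (1.63% to 2.24%). The intervals do not overlap, but the number of these cells that pass a sort on CD45, CD11b and CD64 is set by the sort as well as by the tissue, and the part of the sort was not tested. The libraries held 90057108 UMIs for CD40 KO and 139343516 UMIs for WT. Members held 2136839 of them in the library labelled CD40 KO and 4312382 in the WT library. The median member had 20041 UMIs and 4677.5 genes in the library labelled CD40 KO, against 23149 UMIs and 5420 genes in the WT library. Other kept barcodes were shallower, with medians of 5453.5 UMIs in the library labelled CD40 KO and 12372 UMIs in the WT library. The smallest barcode in the deposited matrix had 1618 UMIs for CD40 KO and 500 UMIs for WT, so the matrices start at different depths. One deep barcode held 10.6% of all member UMIs of the library labelled CD40 KO, while the deepest WT member held 2.34%. For some genes the value without it is given beside the result. Of 119 named genes that differed by at least 1.5-fold between the libraries, 105 still did so without the deepest barcode of each library. All 119 kept their direction. Among those that fell short were *Gsn*, *Mgp*, *Eln*, *Nfkbia*, *Itga5* and *Tnfaip6*, which are given below without that value.

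The share of the 4 rule genes had a median of 1.31% and a maximum of 6.07% among CD40 KO-labelled members, and a median of 1.18% and a maximum of 11.9% among WT members. The member nearest the limit had 0.3003% in the library labelled CD40 KO and 0.305% in the WT library, and the nearest barcode outside it had 0.275% in the library labelled CD40 KO and 0.291% in the WT library. Few barcodes lay near the limit: 9 CD40 KO-labelled and 8 WT members had 0.3% to 0.4%, and 9 CD40 KO-labelled and 7 WT barcodes had 0.2% to 0.3%. From 0.1% to 0.2% there were 171 barcodes for CD40 KO and 12 for WT. Collagen transcripts outside the members were likewise more frequent in the library labelled CD40 KO: *Col1a1* stood at 24.6 counts per 1000000 UMIs (CPM) in its other kept barcodes, against 4.92 CPM in those of the WT library, and *Dcn* at 14.5 CPM against 1.69 CPM in WT.

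**Figure D1:**
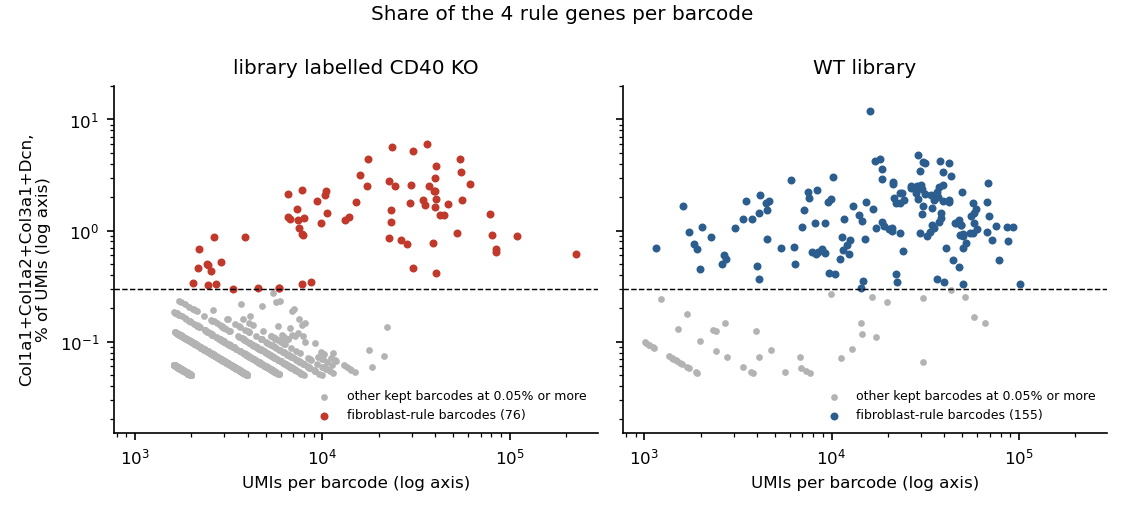
Each point is 1 kept barcode, with its UMIs on the horizontal log axis and the percentage of its UMIs from the 4 rule genes on the vertical log axis, and the dashed line is the 0.3% limit. The 76 members of the library labelled CD40 KO (left) and the 155 WT members (right) spread over depths from 1150 to 225475 UMIs, and below the line the library labelled CD40 KO has the denser cloud. Barcodes under 0.05% are not drawn.

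The label was checked against markers of fibroblasts. *Col1a1* and *Col3a1*, the main fibrillar collagens, averaged 4203 and 6537 CPM in CD40 KO-labelled members and 3916 and 6065 CPM in WT members, but they belong to the rule. Markers outside the rule are independent of that choice only in part, since all genes of a barcode share its droplet. *Sparc*, a collagen-binding matricellular protein, had 4057 CPM in CD40 KO-labelled members and 3763 CPM in WT members, against 19.6 CPM (CD40 KO) and 48.4 CPM (WT) in the other kept barcodes of the same libraries. *Lum*, the proteoglycan lumican, had 512 CPM in CD40 KO-labelled and 314 CPM in WT members, against 4.396 CPM (CD40 KO) and 0.426 CPM (WT) in the other barcodes. *Tcf21*, a transcription factor of cardiac fibroblasts, had 54.8 CPM in CD40 KO-labelled and 50.3 CPM in WT members, and *Pdgfra*, their platelet-derived growth factor receptor, 122 CPM in CD40 KO-labelled and 111 CPM in WT members. Both were under 1 CPM in the other barcodes of both libraries. The markers therefore bear the name fibroblast-like for the set as a whole, with exceptions in sub-clusters 6 and 8, which are given with the sub-clusters below.

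Of 3619 genes measured in members, meaning a mean level of at least 50 CPM over the libraries, 533 (14.7%) were at least 5-fold higher in members than in other kept barcodes in both libraries. This is a description, since the members were picked on transcripts of the same barcodes. Apart from the rule gene *Col1a2*, the 15 genes furthest above the other barcodes included *Slit2*, a secreted guidance protein, with 236 CPM in CD40 KO-labelled and 259 CPM in WT members, against 0.631 CPM (CD40 KO) and 0.646 CPM (WT) in the other barcodes. *Gas1*, a hedgehog co-receptor, had 155 CPM in CD40 KO-labelled and 157 CPM in WT members, against 0.436 CPM (CD40 KO) and 0.289 CPM (WT) in the other barcodes. *Adamts5*, an aggrecan-cleaving protease, had 201 CPM in CD40 KO-labelled and 159 CPM in WT members. *Ptn*, the growth factor pleiotrophin, had 308 CPM in CD40 KO-labelled and 239 CPM in WT members. The others were *Col8a1*, *Col12a1*, *Ogn*, *Pappa*, *Dclk1*, *Rian*, *Foxp2*, *Gpr39*, *Pcdh9* and *Medag*. All 14 measured collagens of the fibrillar and fibril-associated list, 13 of 16 fibroblast identity genes, all 12 elastic fibre genes and 14 of 19 collagen-processing genes were among the 533, while none of 12 measured CD40 and NF-kB genes and none of 14 measured hypoxia and glycolysis genes was.

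**Figure D2:**
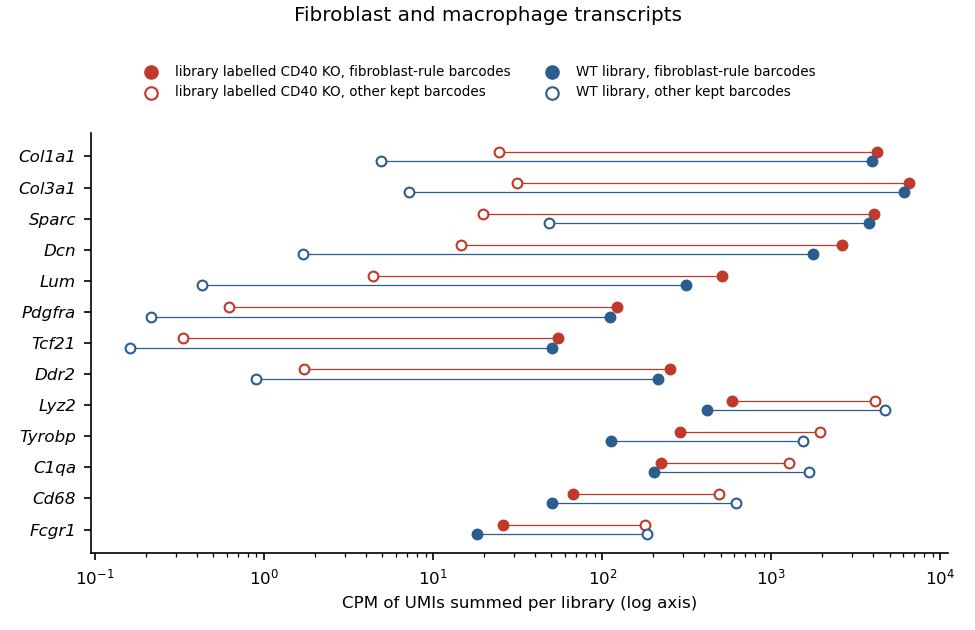
The horizontal log axis gives CPM of UMIs summed over each library, with filled points for fibroblast-rule barcodes and open points for other kept barcodes, red for the library labelled CD40 KO and blue for WT. Fibroblast genes, from Col1a1 to Ddr2, lie far to the right in the members, while the macrophage genes Lyz2, Tyrobp, C1qa, Cd68 and Fcgr1 lie lower in members than in the other barcodes but above 10 CPM.

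Transcripts of the sorted surface proteins were sparse in members. *Ptprc*, which encodes CD45, was seen in 34 of 76 CD40 KO-labelled members (44.7%, 33.3% to 56.6%) and in 31 of 155 WT members (20%, 14.0% to 27.2%). *Fcgr1*, which encodes CD64, was seen in 23 CD40 KO-labelled members (30.3%) and 24 WT members (15.5%), and *Itgam*, which encodes CD11b, in 20 CD40 KO-labelled and 30 WT members. No UMI of any of the 3 genes was found in 28 of 76 CD40 KO-labelled members (36.8%, 26.1% to 48.7%) and 102 of 155 WT members (65.8%, 57.8% to 73.2%), and those without one were shallower, with medians of 10421 UMIs for CD40 KO and 18426 UMIs for WT.

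Macrophage transcripts were present in the members and in sum higher in the library labelled CD40 KO. All 15 genes of a macrophage list were detected in both libraries, at 11.4% to 18.9% (median 14.99%) of their level in the other barcodes for CD40 KO and at 6.76% to 12.1% (median 8.87%) for WT. Their summed level was 2368 CPM in CD40 KO-labelled members and 1686 CPM in WT members, against 15763 CPM (CD40 KO) and 18621 CPM (WT) in the other barcodes. Per member it ran from 487 CPM over a median of 921 CPM to 25225 CPM for CD40 KO, and from 0 CPM over a median of 268 CPM to 13955 CPM for WT. Every CD40 KO-labelled member held some of these transcripts, and 10 WT members held none. Without sub-clusters 6 and 7, described below, the 9 genes at 50 CPM or more split in direction. *C1qa*, *C1qc*, *C1qb* and *Ctss* had log2 ratios, CD40 KO over WT, of -0.64, -0.28, -0.18 and -0.13. *Lyz2*, *Cd68*, *Fcer1g*, *Tyrobp* and *Cd14* had 0.07, 0.30, 0.32, 0.85 and 1.43. Without members that held a *Ptprc* UMI all 9 were higher, from 1.47 for *Ctss* to 3.32 for *Tyrobp*. Of other lists, endothelial genes summed to 92.7 CPM in CD40 KO-labelled and 199.7 CPM in WT members, neutrophil genes to 52.9 CPM (CD40 KO) and 90.9 CPM (WT), pericyte and smooth muscle genes to 70.2 CPM (CD40 KO) and 173 CPM (WT), cardiomyocyte genes to 10.8 CPM (CD40 KO) and 8.12 CPM (WT), and epicardial and mesothelial genes to 81.9 CPM (CD40 KO) and 408 CPM (WT). The part of free RNA and of doublets in the macrophage signal was not tested. A doublet caller marked no barcode by its own threshold in either library. Removal of the highest scores took 1 of 76 CD40 KO-labelled members (1.32%) and 25 of 155 WT members (16.1%). Of all kept barcodes it took 6.34% in the library labelled CD40 KO and 6.47% in the WT library. The libraries shared 23 barcode sequences, none of them a member's.

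*Cd40* itself did not check the label. It had 5.62 CPM in CD40 KO-labelled members (a UMI in 9 of 76) and 5.102 CPM in WT members (a UMI in 20 of 155). In the other kept barcodes it had 18.6 CPM in the library labelled CD40 KO and 18.2 CPM in the WT library. A 3′ tag can remain where an allele removes another part of the gene, and the allele is not given. Library names therefore stand for labels throughout.

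Between the libraries, 329 of 3619 measured genes (9.09%) stood 1.5-fold or more above WT in CD40 KO-labelled members and 358 (9.89%) stood as far below it, with a median log2 ratio of -0.07 over all measured genes. After scaling by the median of ratios the split was 398 higher and 267 lower. Set against these shares, complement genes (3 of 4 measured), the early injury list (11 of 21), the matricellular list (6 of 15) and signals to myeloid cells (6 of 16) held more higher genes and no lower one, while the G2 and M phase list (5 of 6), the S phase list (3 of 5) and the myofibroblast list (7 of 15) held more lower genes. The main collagens were near equal: *Col1a1*, *Col1a2* and *Col3a1* differed by a log2 ratio of 0.10, 0.09 and 0.11. A number in brackets after a pair of levels is the log2 ratio, CD40 KO over WT, followed by its counting interval where one is given. Some ratios moved by over 1.5 times when sub-clusters 1, 2 and 3 of the members, described below, were given equal weight in both libraries, an alternative chosen after the data were seen, and for these the equal-weight ratio follows in the brackets. Without the sub-clusters rich in macrophage transcripts (numbers 6 and 7 below) the counts were 313 higher and 361 lower. The 50 CPM limit was applied anew under each setting, so a list median under another setting can rest on other genes.

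**Figure D3:**
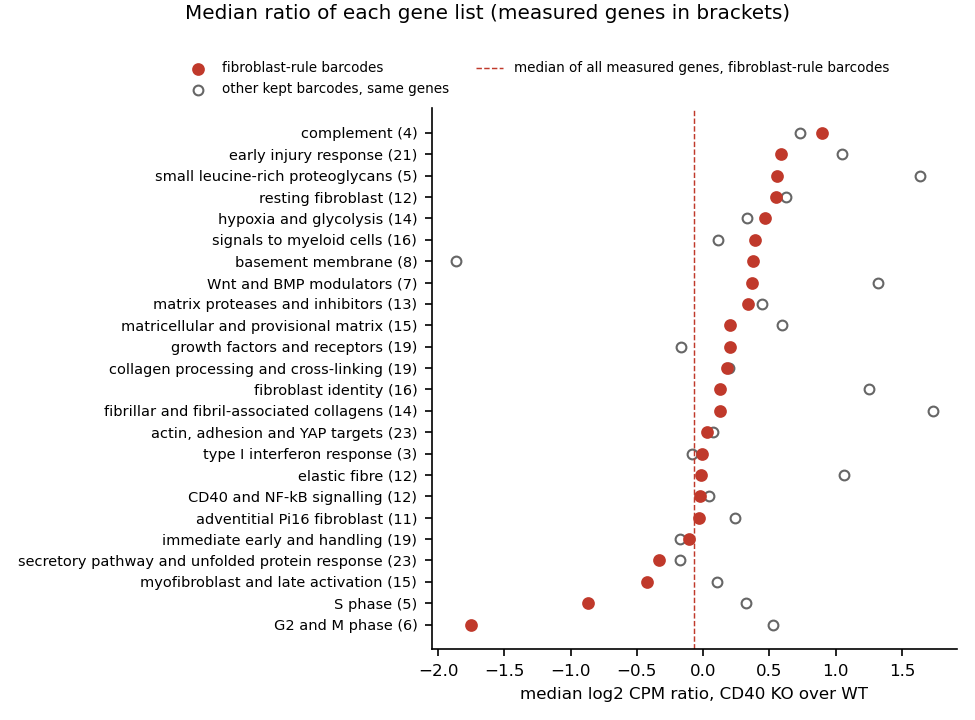
Each row is a gene list with its number of measured genes, and the horizontal axis is the median log2 CPM ratio, CD40 KO over WT, with filled points for fibroblast-rule barcodes, open points for the same genes in other kept barcodes and a dashed line at the median of all measured genes. The complement and early injury lists lie farthest right among members, at 0.90 and 0.59, and the G2 and M phase list farthest left at -1.76, where the other barcodes lie at 0.53.

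The early injury list, which holds chemokines, cytokines and stress genes that fibroblasts switch on soon after damage, had 11 of 21 measured genes at least 1.5-fold higher in CD40 KO-labelled members and none lower, with a median log2 ratio of 0.59. For the same genes the other kept barcodes had a median of 1.04, so the direction was not confined to members. *Mt1* and *Mt2* encode the metallothioneins, small proteins that bind zinc and copper. *Mt1* had 1879.9 CPM in CD40 KO-labelled members and 386 CPM in WT members, a log2 ratio of 2.28 (2.20 to 2.37). With every barcode thinned to 2000 UMIs, 90.8% of CD40 KO-labelled and 51.01% of WT members had an *Mt1* UMI, against 98.7% of CD40 KO-labelled and 87.1% of WT members before thinning. *Mt2* had 991 CPM in CD40 KO-labelled and 272 CPM in WT members, a log2 ratio of 1.87 (1.76 to 1.97). Both genes differed by a like amount outside the members, where *Mt1* had 1159 CPM in the library labelled CD40 KO and 270.2 CPM in WT, and *Mt2* 163 CPM (CD40 KO) and 32.2 CPM (WT).

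*Mt1* and *Mt2* moved together and their start sites lie 6471 bases apart on chromosome 8, so the 250 bases before each start are shown, from the RefSeq promoter table on GRCm38.p6. Capitals mark a metal response core, TGCACNC or TGCGCNC on either strand, the motif read by the zinc-sensing factor MTF1. *Mt1* holds 1 match, starting 23 bases before its start, and *Mt2* holds 3, at 223, 128 and 50 bases. Of 32851 promoters of this length, 21.4% hold the motif. The stretches are chr8:94178839-94179088 for *Mt1* and chr8:94172368-94172617 for *Mt2*, both on the plus strand.
Mt1: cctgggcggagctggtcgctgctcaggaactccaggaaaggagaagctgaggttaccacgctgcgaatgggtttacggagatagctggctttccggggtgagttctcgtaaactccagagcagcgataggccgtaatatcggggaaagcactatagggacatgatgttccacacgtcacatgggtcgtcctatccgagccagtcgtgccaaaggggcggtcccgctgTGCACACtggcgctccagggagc
Mt2: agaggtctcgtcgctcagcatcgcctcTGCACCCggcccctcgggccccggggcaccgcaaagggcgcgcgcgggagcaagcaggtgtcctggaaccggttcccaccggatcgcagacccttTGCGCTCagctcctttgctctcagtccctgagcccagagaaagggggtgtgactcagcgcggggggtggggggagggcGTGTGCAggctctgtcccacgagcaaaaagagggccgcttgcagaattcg

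*Il6* encodes interleukin-6, which fibroblasts release after injury. It had 373 CPM in CD40 KO-labelled members and 118 CPM in WT members, a log2 ratio of 1.66 (1.496 to 1.82), and a UMI in 67.1% of CD40 KO-labelled and 54.2% of WT members. In the other barcodes it was at 14.4 CPM in the library labelled CD40 KO and 3.09 CPM in WT, far below the members. Its promoter is shown because *Il6* is a classic NF-kB target, the pathway CD40 feeds. The 250 bases are chr5:30012864-30013113 on the plus strand, and capitals mark the 1 match to the NF-kB consensus, which begins 44 bases before the start. That consensus, searched on both strands, is in 1.19% of the promoters, and of the 7 genes of the 11 that the table holds, *Cxcl2* and *Il6* had a match.
Il6: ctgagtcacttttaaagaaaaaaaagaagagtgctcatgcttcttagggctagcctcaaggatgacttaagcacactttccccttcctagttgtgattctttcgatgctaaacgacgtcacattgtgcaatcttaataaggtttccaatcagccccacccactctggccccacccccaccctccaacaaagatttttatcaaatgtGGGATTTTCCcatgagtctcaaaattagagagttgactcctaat

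Among the other secreted signals of this list, *Il33*, an alarmin kept in the nucleus, had 256 CPM in CD40 KO-labelled and 95.1 CPM in WT members, with a log2 ratio of 1.43 that was 0.85 without the deepest barcode. *Lif*, leukaemia inhibitory factor of the interleukin-6 family, had 80.5 CPM in CD40 KO-labelled and 19.9 CPM in WT members (2.01, 1.63 to 2.40). *Cxcl2*, a neutrophil-attracting chemokine, had 1539.7 CPM in CD40 KO-labelled and 850.3 CPM in WT members, but the other barcodes held more of it, 5017 CPM in the library labelled CD40 KO and 5831 CPM in WT. The chemokines most abundant in members differed less. *Cxcl1* had 2415 CPM in CD40 KO-labelled and 1821 CPM in WT members (0.41), and *Ccl2*, which draws monocytes, 1581 CPM in CD40 KO-labelled and 1343 CPM in WT members (0.24). Its neighbour in function *Ccl7* was just past the fold, at 1156 CPM in CD40 KO-labelled and 769 CPM in WT members (0.59). *Angptl4*, *Saa3* and *Has2* were also past the fold, with log2 ratios from 0.71 to 0.76 and an equal-weight ratio of 2.62 for *Saa3*, which also came to 2.37 with sub-cluster 8 left out. With equal weight per barcode *Angptl4*, *Saa3* and *Has2* had ratios of 1.25, 0.99 and 0.12.

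**Figure D4:**
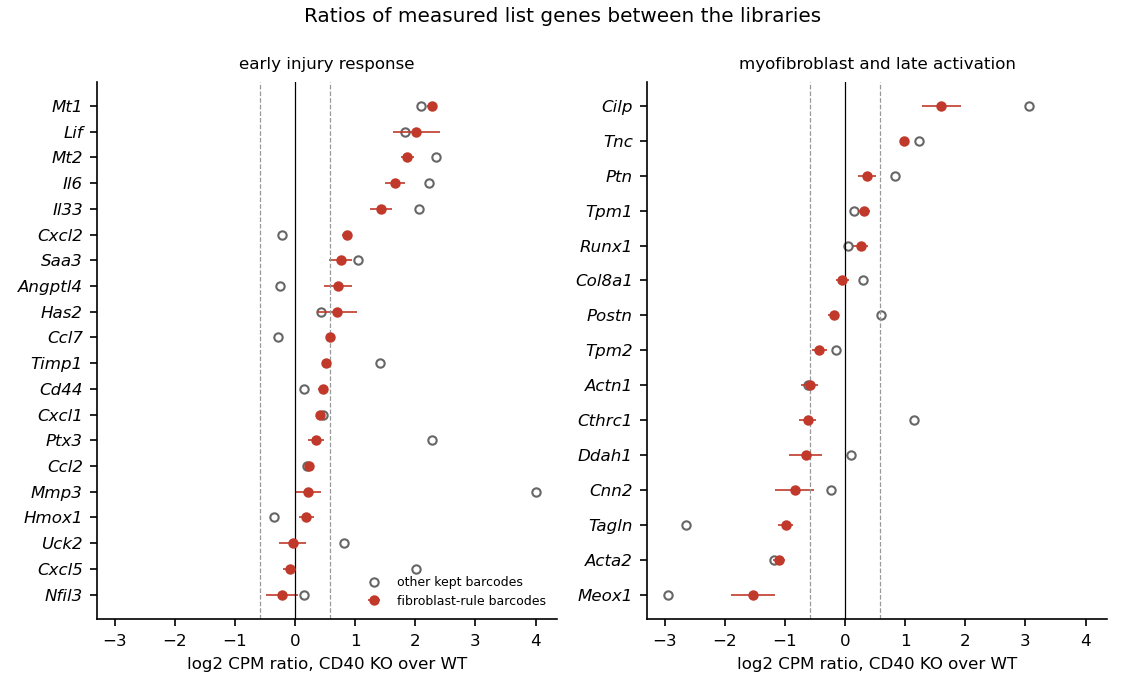
Rows are measured genes of the early injury list (left) or of the myofibroblast list (right), and the horizontal axis is its log2 CPM ratio, CD40 KO over WT, with 95% counting intervals for fibroblast-rule barcodes (filled) and the ratio in other kept barcodes (open). Dashed lines mark 1.5-fold. On the left 10 of the 20 filled points drawn lie right of the upper line and none left of the lower one, and on the right 2 lie beyond the upper line and 7 beyond the lower one.

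The 12 measured genes of at least 100 CPM with the highest ratio were led by *Il1b*, the cytokine interleukin-1 beta. It had 236 CPM in CD40 KO-labelled and 43.4 CPM in WT members (2.45, 2.20 to 2.70), but 1128 CPM (CD40 KO) and 686 CPM (WT) in the other barcodes, so members held far less of it than the rest of the sort. Its ratio was 2.04 without sub-clusters 6 and 7, 3.22 without the deepest barcode of each library, 3.61 without members that held a *Ptprc* UMI, and 4.89 without the barcodes of highest doublet score. In a setting described below with *Spp1*, the profile of the other barcodes was subtracted from that of members. No *Il1b* was then left in WT members, so no ratio could be formed. *Ptgs2*, cyclooxygenase-2 of prostaglandin synthesis, had 798 CPM in CD40 KO-labelled and 166 CPM in WT members (2.27, 2.14 to 2.39), against 302 CPM (CD40 KO) and 113 CPM (WT) in the other barcodes. *Inhba*, the activin A subunit, had 247 CPM in CD40 KO-labelled and 60.5 CPM in WT members (2.03, and 1.56 without the deepest barcode). *Vegfa*, the endothelial growth factor, had 208 CPM in CD40 KO-labelled and 51.9 CPM in WT members, with a counting interval of 1.77 to 2.24 on the log2 ratio and an equal-weight ratio of 1.10.

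*Serpina3n*, a secreted protease inhibitor, was low outside the members, with 363 CPM in CD40 KO-labelled and 99.02 CPM in WT members (1.87, equal-weight 1.27) against 2.697 CPM (CD40 KO) and 0.137 CPM (WT) in the other barcodes. *Ifi27l2a*, an interferon-stimulated gene, had 785 CPM in CD40 KO-labelled and 245 CPM in WT members (1.68), below the 1943 CPM (CD40 KO) and 454 CPM (WT) of the other barcodes. *Crispld2*, a secreted glycoprotein, had 153 CPM in CD40 KO-labelled and 48.9 CPM in WT members, and its log2 ratio of 1.65 was 0.42 when sub-clusters 1, 2 and 3 were given equal weight. *Cd14*, a lipopolysaccharide co-receptor of macrophages, and *Tnfaip2* completed the 12 with *Mt1*, *Mt2* and *Il6*. *Cd14* had 154 CPM in CD40 KO-labelled and 46.1 CPM in WT members, against 844 CPM (CD40 KO) and 561 CPM (WT) in the other barcodes, and *Tnfaip2* had 183 CPM in CD40 KO-labelled and 57.3 CPM in WT members. With the profile of the other barcodes subtracted, *Cd14* was left with 39.4 CPM in CD40 KO-labelled and 0 CPM in WT members.

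Structural collagens differed little in level. Of 14 measured genes of the fibrillar and fibril-associated list, *Col5a3*, a minor chain of type V collagen, was at least 1.5-fold higher, with 232 CPM in CD40 KO-labelled and 96.5 CPM in WT members (1.26, and 0.92 without the deepest barcode), and none was 1.5-fold lower. The list's median was 0.13, and -0.06 with equal weight per barcode. Of 8 measured basement membrane genes *Col4a1* and *Col4a2*, the chains of the common type IV collagen, were higher. *Col4a1* had 588 CPM in CD40 KO-labelled and 348 CPM in WT members (0.76), and *Col4a2* 308 CPM in CD40 KO-labelled and 156 CPM in WT members (0.99). In the other barcodes the direction was opposite, at 6.78 CPM in CD40 KO against 25.4 CPM in WT for *Col4a1* and 3.32 CPM in CD40 KO against 13.95 CPM in WT for *Col4a2*.

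Small leucine-rich proteoglycans, which space and bind collagen fibrils, had a median of 0.56 over 5 measured genes. *Lum* (0.71) and *Ogn*, osteoglycin, with 309 CPM in CD40 KO-labelled and 204 CPM in WT members (0.60), were past 1.5-fold, and *Dcn*, a rule gene, (0.56) and *Bgn*, biglycan, with 1864 CPM in CD40 KO-labelled and 1358 CPM in WT members (0.46), lay under it. *Aspn*, asporin, ran the other way, with 183 CPM in CD40 KO-labelled and 234 CPM in WT members (-0.35). With sub-clusters 1, 2 and 3 at equal weight the ratio of *Lum* was 0.21 and that of *Dcn* turned to -0.07, while *Ogn*, *Bgn* and *Aspn* had 0.58, 0.54 and -0.21. The list median at that weighting, 0.070, rests on another set of measured genes.

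The matricellular and provisional matrix list had 6 of 15 measured genes higher and none lower, with a median of 0.20. *Tnc*, tenascin C, a matrix protein of injured tissue, had 2151 CPM in CD40 KO-labelled and 1091 CPM in WT members (0.98, 0.92 to 1.04) and was under 10 CPM in the other barcodes of both libraries. *Has1*, a hyaluronan synthase, had 188 CPM in CD40 KO-labelled and 69.1 CPM in WT members (1.44, 1.22 to 1.66, equal-weight 0.81). *Tnfaip6*, which joins hyaluronan to heavy chains, had 906 CPM in CD40 KO-labelled and 540.3 CPM in WT members (0.75), a ratio of 0.08 with sub-clusters 1, 2 and 3 at equal weight. *Thbs1*, thrombospondin 1, had 884 CPM in CD40 KO-labelled and 496 CPM in WT members (0.83). *Spp1*, osteopontin, had 1383 CPM in CD40 KO-labelled and 904 CPM in WT members (0.61, equal-weight 1.52), but 4724 CPM in the other barcodes of the library labelled CD40 KO against 9749 CPM in those of WT. In 1 setting the profile of the other barcodes was subtracted from that of members, 14.2% of it for CD40 KO and 8.51% for WT. *Spp1* was then left with 829 CPM in CD40 KO-labelled and 80.6 CPM in WT members, a log2 ratio of 3.36. The WT remainder is small beside what was taken off. Single macrophage genes put the WT share anywhere from 6.76% to 12.1%, so the size of this ratio is not fixed by the data. Fibronectin and periostin, the genes *Fn1* and *Postn*, had log2 ratios of -0.11 and -0.19, and *Postn* turned to 0.40 with sub-clusters 1, 2 and 3 at equal weight.

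Among genes that cut or shape matrix, proteases and their inhibitors leaned higher. Of 13 measured, 3 were past 1.5-fold and none was lower, against 9.09% higher and 9.89% lower of all measured genes. Their median was 0.34, and 0.046 with equal weight per barcode. *Mmp2*, gelatinase A, had 189 CPM in CD40 KO-labelled and 65.9 CPM in WT members (1.52, 1.30 to 1.74, equal-weight 0.72). *Adamts1*, a protease of versican, had 223 CPM in CD40 KO-labelled and 138 CPM in WT members (0.70). *Timp1*, the most abundant metalloprotease inhibitor of members, had 2453 CPM in CD40 KO-labelled and 1708 CPM in WT members (0.52). Of 19 measured collagen-processing genes 2 were higher, near the 9.09% of all measured genes. They were *Tgm2*, a cross-linking transglutaminase that the other barcodes held at higher levels, and *Plod2*, a lysyl hydroxylase. *Plod2* had 304 CPM in CD40 KO-labelled and 156 CPM in WT members (0.96, and 0.42 without the deepest barcode). *Lox*, lysyl oxidase, had 559.7 CPM in CD40 KO-labelled and 379 CPM in WT members (0.56). *Serpinh1*, the collagen chaperone HSP47, had 1561 CPM in CD40 KO-labelled and 1921 CPM in WT members (-0.30). Among 12 measured elastic fibre genes *Mfap4* had 222 CPM in CD40 KO-labelled and 92.3 CPM in WT members (1.27), *Ltbp1*, which stores latent TGF-beta, 183 CPM in CD40 KO-labelled and 86.3 CPM in WT members (1.08, equal-weight 0.30), and *Eln*, elastin, 64.6 CPM in CD40 KO-labelled and 103 CPM in WT members (-0.67), while fibrillin 1, the gene *Fbn1*, was near equal (-0.07).

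Genes of the myofibroblast state leaned lower. Of 15 measured genes 7 were at least 1.5-fold lower and 2 higher in CD40 KO-labelled members, with a median of -0.43 against 0.10 in the other barcodes. *Acta2*, smooth muscle alpha-actin, had 482 CPM in CD40 KO-labelled and 1037 CPM in WT members (-1.10, -1.20 to -1.01). *Tagln*, transgelin, had 297 CPM in CD40 KO-labelled and 589.9 CPM in WT members (-0.99, -1.12 to -0.86). *Cthrc1*, a secreted protein of activated fibroblasts, had 258 CPM in CD40 KO-labelled and 397 CPM in WT members (-0.62), and *Meox1*, a homeobox factor of activated cardiac fibroblasts, 35.6 CPM in CD40 KO-labelled and 102 CPM in WT members (-1.52, equal-weight -0.84). *Ddah1*, *Cnn2* and *Actn1* had log2 ratios of -0.66, -0.83 and -0.59, and equal-weight ratios of 0.19, -0.21 and -0.16. The 2 higher genes were *Tnc* and *Cilp*, cartilage intermediate layer protein, with 96.4 CPM in CD40 KO-labelled and 31.8 CPM in WT members (1.60, equal-weight 0.61).

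With sub-clusters 1, 2 and 3 at equal weight *Acta2* had a log2 ratio of -0.55, and *Tagln* of -0.41. The median of the list turned to 0.10 over the genes measured at that weighting. Fewer cells of a kind and less transcript per cell cannot be told apart in the sums over all members.

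Of the 23 measured genes of the actin, adhesion and YAP list 3 were lower and 2 higher, with a median of 0.03. The lower ones serve the cytoskeleton of many cells: *Actg1*, cytoplasmic gamma-actin, had 1968 CPM in CD40 KO-labelled and 3852 CPM in WT members (-0.97, -1.02 to -0.92), *Cfl1*, cofilin, 365 CPM in CD40 KO-labelled and 695 CPM in WT members (-0.93), and *Pfn1*, profilin, 623 CPM in CD40 KO-labelled and 999.7 CPM in WT members (-0.68). All 3 were also lower in the other barcodes, with log2 ratios of -0.34, -0.65 and -0.62. *Actb*, cytoplasmic beta-actin, had 6760.5 CPM in CD40 KO-labelled and 6636 CPM in WT members (0.03). The 2 higher genes were *Tmsb10*, a thymosin that binds actin, and *Itga5*, an integrin chain for fibronectin, with log2 ratios of 0.66 and 0.64.

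The CArG box is the motif read by serum response factor at genes of actin and smooth muscle. Among promoters of the lower genes it was found in *Actg1*, 90 bases before the start, and in *Cnn2*, 56 bases before, and in 1.47% of all promoters of 250 bases, with both strands searched. These were 1 of 3 actin-list genes and 1 of 4 myofibroblast genes that the table holds. The stretches are chr11:120348496-120348745 on the minus strand and chr10:79988350-79988599 on the plus strand, with the box in capitals. These promoters, like those above, were picked after the values were seen.
Actg1: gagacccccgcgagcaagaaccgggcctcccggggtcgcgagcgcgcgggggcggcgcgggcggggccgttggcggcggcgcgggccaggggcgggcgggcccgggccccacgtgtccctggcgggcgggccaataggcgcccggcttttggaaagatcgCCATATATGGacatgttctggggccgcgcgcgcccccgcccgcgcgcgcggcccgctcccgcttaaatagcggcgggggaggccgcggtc
Cnn2: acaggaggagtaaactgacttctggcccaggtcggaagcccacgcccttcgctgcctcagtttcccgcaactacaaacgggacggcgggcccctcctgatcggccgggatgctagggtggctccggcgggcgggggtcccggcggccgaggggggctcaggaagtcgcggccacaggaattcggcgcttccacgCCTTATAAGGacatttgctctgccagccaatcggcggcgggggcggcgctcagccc

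Cell division genes had the list median farthest from 0. Of 6 measured genes of the G2 and M phase list 5 were at least 1.5-fold lower in CD40 KO-labelled members, with a median of -1.76, while in the other barcodes the same genes had a median of 0.53. *Ube2c*, a ubiquitin-conjugating enzyme of anaphase, had 16.8 CPM in CD40 KO-labelled and 157 CPM in WT members (-3.22, -3.75 to -2.74, equal-weight -2.30). *Cdk1*, the mitotic kinase, had 17.8 CPM in CD40 KO-labelled and 96.2 CPM in WT members (-2.44, equal-weight -1.28), and *Mki67*, the proliferation antigen Ki-67, 22.5 CPM in CD40 KO-labelled and 84.9 CPM in WT members (-1.92). *Top2a* and *Birc5*, a topoisomerase and survivin, had log2 ratios of -1.59 and -1.502, and equal-weight ratios of -0.72 and -0.78. Per member the list's summed level had a median of 260.2 CPM for CD40 KO and 238 CPM for WT, with maxima of 3643 CPM for CD40 KO and 9362 CPM for WT. The medians were thus close and the maxima were not. With equal weight per barcode the median ratio of the list was -0.72, but over another set of measured genes. At that weighting the 6 genes measured in the main setting ran from -2.62 for *Ube2c* to -0.24 for *Hmgb2*, with *Mki67* at -1.78, *Cdk1* at -1.52, *Top2a* at -1.24 and *Birc5* at -0.72.

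Of 5 measured S phase genes *Dut*, *Rrm1* and *Slbp*, which serve nucleotide and histone supply, were lower, with a list median of -0.87. With sub-clusters 1, 2 and 3 at equal weight their ratios were -0.29, -0.47 and -0.66, while *Pcna* and *Tyms* had 0.33 and 0.25. The list median at that weighting, -0.02, rests on another set of measured genes. The 12 measured genes of at least 100 CPM with the lowest ratio held further genes of division. *Cks2*, a kinase subunit, had 57.6 CPM in CD40 KO-labelled and 194 CPM in WT members (-1.75, equal-weight -0.85), *Pclaf*, a PCNA partner, 59.9 CPM in CD40 KO-labelled and 154 CPM in WT members (-1.36, equal-weight -0.71), and *Tubb5*, a beta-tubulin, 577 CPM in CD40 KO-labelled and 1305 CPM in WT members (-1.18). *Arf5*, a small GTPase of the Golgi, had 187 CPM in CD40 KO-labelled and 620.3 CPM in WT members (-1.73), and it was lower in the other barcodes too (-1.39). *Cxcl10*, an interferon-induced chemokine, had 100.1 CPM in CD40 KO-labelled and 229.8 CPM in WT members (-1.20). *Fabp5*, *Birc5*, *Alyref*, *Srsf7*, *Nasp*, *Cks1b* and *Prmt1* completed the 12, and the direction of *Fabp5* turned with equal weight per barcode.

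Genes of resting fibroblasts split. Of 12 measured genes 5 were higher and 2 lower in CD40 KO-labelled members, with a median of 0.55 that became -0.27 with sub-clusters 1, 2 and 3 at equal weight. *Gpx3*, a secreted glutathione peroxidase, had 358 CPM in CD40 KO-labelled and 155 CPM in WT members (1.21), and *Cxcl14*, a chemokine of quiescent stroma, 120.3 CPM in CD40 KO-labelled and 40.8 CPM in WT members (1.56, equal-weight 0.95). *Lpl*, *Scn7a* and *Abca8a* had log2 ratios of 0.88, 1.004 and 0.65, and equal-weight ratios of 0.98, 0.31 and -0.36. *Gsn*, the actin-severing protein gelsolin, was lower, with 921 CPM in CD40 KO-labelled and 1387 CPM in WT members (-0.59, equal-weight -2.23), and so was *Mgp*, matrix Gla protein, with 1305 CPM in CD40 KO-labelled and 2119 CPM in WT members (-0.70).

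Of 11 measured genes of the adventitial *Pi16* list, genes of a reserve fibroblast state near vessels, 2 were higher and 2 lower, with a median of -0.03. *Ly6a*, which encodes Sca-1, had 295 CPM in CD40 KO-labelled and 172 CPM in WT members (0.78), and turned to -0.12 with sub-clusters 1, 2 and 3 at equal weight. *Igfbp6*, a binding protein of insulin-like growth factors, had 53.3 CPM in CD40 KO-labelled and 102 CPM in WT members (-0.94), and its direction turned to 0.56 when the 10 WT members of sub-cluster 8 were left out.

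Complement genes were higher: 3 of 4 measured, none lower, median 0.90. *C3*, the central component, had 568 CPM in CD40 KO-labelled and 298 CPM in WT members (0.93, 0.81 to 1.04, and 1.86 with sub-cluster 8 left out). *Serping1*, the C1 inhibitor, had 521 CPM in CD40 KO-labelled and 285 CPM in WT members (0.87). With sub-clusters 1, 2 and 3 at equal weight *C3* stayed at 1.04, while *Serping1* came to 0.08.

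Genes for signals to myeloid cells had 6 of 16 measured members higher and none lower, with a median of 0.39 against 0.11 in the other barcodes. Besides *Il6*, *Ccl7* and *C3* they were *Mif*, macrophage migration inhibitory factor, with 660.3 CPM in CD40 KO-labelled and 349 CPM in WT members (0.92), *Gas6*, a ligand of the Axl and Mertk receptors of macrophages, with 131 CPM in CD40 KO-labelled and 76.1 CPM in WT members (0.78), and *Tgfb1*, with 81.4 CPM in CD40 KO-labelled and 49.2 CPM in WT members (0.73). *Mif* was higher to a like degree in the other barcodes (0.95), and *Gas6* was lower there (-0.69). *Csf1*, the macrophage growth factor, had 172 CPM in CD40 KO-labelled and 165 CPM in WT members (0.06), and *Cxcl12*, which retains CXCR4+ cells, 287 CPM in CD40 KO-labelled and 265 CPM in WT members (0.12). *Csf2*, which encodes GM-CSF, was below the 50 CPM limit, with 25.7 CPM in CD40 KO-labelled and 4.41 CPM in WT members.

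The CD40 and NF-kB list was near level, with 1 of 12 measured genes higher, 1 lower and a median of -0.02. *Birc3*, the ubiquitin ligase cIAP2, had 125 CPM in CD40 KO-labelled and 71.9 CPM in WT members (0.80, and 0.52 without sub-clusters 6 and 7, equal-weight 0.18). *Nfkbia*, the NF-kB inhibitor I kappa B alpha, had 845 CPM in CD40 KO-labelled and 1277 CPM in WT members (-0.60), with a like difference in the other barcodes (-0.61). *Nfkb1*, which gives the subunit p50, had 1182 CPM in CD40 KO-labelled and 861 CPM in WT members (0.46), while *Rela*, *Rel* and *Traf3* had ratios of -0.13, -0.01 and -0.03.

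Growth factor and receptor genes had 6 of 19 measured higher and 3 lower. Beside *Vegfa*, the higher ones were *Egfr*, with 259.7 CPM in CD40 KO-labelled and 154 CPM in WT members (0.76), *Tgfbr3*, the co-receptor betaglycan, with 316 CPM in CD40 KO-labelled and 195 CPM in WT members (0.69), *Igf1*, *Vegfd* and *Pdgfrl*. With equal weight per barcode *Tgfbr3*, *Egfr* and *Pdgfrl* came to 0.03, 0.37 and 0.50, while *Igf1*, *Vegfd* and *Vegfa* had 0.57, 1.06 and 1.37. *Igf1* had 127 CPM in CD40 KO-labelled and 80.002 CPM in WT members (0.67, and 0.00 with sub-clusters 1, 2 and 3 at equal weight). *Pdgfrb*, the mural and fibroblast receptor for PDGF-B, was lower, with 55.7 CPM in CD40 KO-labelled and 108 CPM in WT members (-0.95), as was *Igfbp6*. *Igfbp5*, a further binding protein of insulin-like growth factors, had 34.6 CPM in CD40 KO-labelled and 69.3 CPM in WT members (-1.002, equal-weight -2.71), but its direction turned to 0.23 with sub-cluster 8 left out and to 0.042 without the 5 deepest members of each library. Of 7 measured Wnt and BMP modulators *Sfrp1*, a Wnt antagonist, had 323 CPM in CD40 KO-labelled and 139 CPM in WT members (1.22, 1.06 to 1.38), and *Bmper*, a BMP-binding protein, 179 CPM in CD40 KO-labelled and 109 CPM in WT members (0.72), and none was lower.

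Among genes of cell state, 4 of 14 measured hypoxia and glycolysis genes were higher and none lower (median 0.47, against 0.33 in the other barcodes). Besides *Vegfa* and *Mif* they were *Eno1*, enolase, with 202 CPM in CD40 KO-labelled and 94.1 CPM in WT members (1.10), and *Ndrg1* (0.77, 0.29 without sub-clusters 6 and 7, and -0.011 at a rule share of 1%). Of 23 measured genes of the secretory pathway and the unfolded protein response 5 were lower and none higher (median -0.33, against -0.17 in the other barcodes). *Manf*, an endoplasmic reticulum stress protein, had 416 CPM in CD40 KO-labelled and 740.0 CPM in WT members (-0.83), and *Pdia6*, a disulfide isomerase, 377 CPM in CD40 KO-labelled and 712 CPM in WT members (-0.92). Of 19 immediate early genes, which tissue digestion also switches on, 2 were higher and 2 lower, with a median of -0.11 that came to -0.56 with sub-clusters 1, 2 and 3 at equal weight. Of 3 measured interferon genes only *Ifi27l2a* was past 1.5-fold, while *Isg15* and *Bst2* had ratios of -0.01 and -0.02. The median of these genes, -0.01, came to 0.65 without members that held a *Ptprc* UMI. With sub-clusters 1, 2 and 3 at equal weight *Ifi27l2a*, *Isg15* and *Bst2* had ratios of 1.13, 0.35 and 0.11. The list median at that weighting, 0.74, rests on another set of measured genes.

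Members fell into 8 sub-clusters when grouped without the rule genes. Their defining genes are descriptions, and their sizes are listed without a comparison between libraries where those genes differ. Sub-cluster 1 (20 CD40 KO-labelled and 30 WT members) was led by *Gsn*, *Clec3b* and *Pi16*, with the resting list at 17860.1 CPM against 1277 to 5503 CPM in the others and complement at 5155 CPM. Sub-cluster 2 (14 CD40 KO-labelled and 28 WT members) was led by *Pappa*, *Kif26b*, *Diaph3* and *Tnc*. Sub-cluster 3 (12 CD40 KO-labelled and 30 WT members) was led by *Cmss1*, *Lars2* and *Gphn* and held fibrillar collagen genes at 22843 CPM. Sub-cluster 4 (2 CD40 KO-labelled and 35 WT members) was led by *Ube2c*, *Acta2* and *Prc1*, and had the highest myofibroblast level, 9339 CPM, and the highest G2 and M phase level, 2346 CPM. Sub-cluster 5 (8 CD40 KO-labelled and 11 WT members) was led by *Eef1akmt1*, *Lap3* and *Fdps* and came next in G2 and M phase, at 2149 CPM.

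The remaining sub-clusters carried genes of other cells. Sub-cluster 6 (16 CD40 KO-labelled members and 1 WT member) was led by *Tyrobp*, *H2-Ab1*, *Cd74* and *Aif1*, with macrophage genes at 15419 CPM, near the 15763 CPM that the rest of the CD40 KO-labelled library had, and a median rule share of 0.345%, close to the limit. These 17 barcodes go against the fibroblast label. Sub-cluster 7 (4 CD40 KO-labelled and 10 WT members) was led by *Gpnmb*, *Malt1* and *Mrc1* and held macrophage genes at 7288 CPM beside collagens at 13919 CPM. Sub-cluster 8 (0 CD40 KO-labelled and 10 WT members) was led by *Lgals7*, *Nkain4*, *Krt8* and *Krt19* and held epicardial and mesothelial genes at 3865 CPM, against 0 to 106 CPM elsewhere, so it was epicardial- and mesothelial-like. *Tcf21* had 0 UMIs in it, and *Lum* and *Postn* 1 UMI each, while *Pdgfra* stood at 119 CPM and *Col1a1* at 2868 CPM. These 10 barcodes likewise go against the fibroblast label. The count of 0 of 76 members in the library labelled CD40 KO allows a share of up to 4.74% by the exact interval. Members were clustered again without 687 genes that differed by 1.5-fold between the libraries, and each new cluster was assigned to the sub-cluster most frequent in it. Sub-clusters 6 and 8 came back whole, with 16 CD40 KO-labelled and 1 WT member in sub-cluster 6 and 0 CD40 KO-labelled and 10 WT members in sub-cluster 8. The new clusters assigned to sub-cluster 4 held 15 CD40 KO-labelled and 57 WT members (adjusted Rand index 0.54 between the groupings). There were 8 new clusters and none was assigned to sub-cluster 2, so some sub-cluster received more than 1. Sub-cluster 1 shared 43 of its 50 members and sub-cluster 3 all 42 with the new clusters assigned to it. Values within sub-cluster 2 rest on a group that was not recovered. Without sub-clusters 6 and 7 members were 0.706% of kept barcodes in the library labelled CD40 KO and 1.78% in the WT library.

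**Figure D5:**
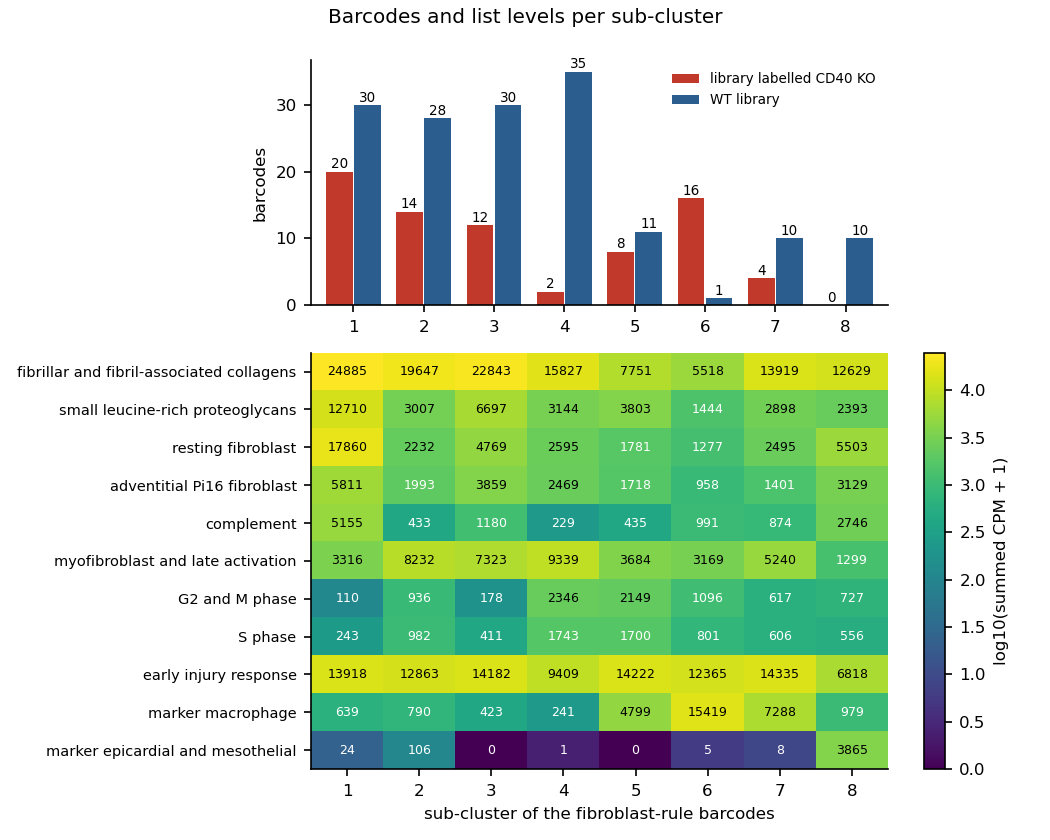
The upper bars count barcodes of each sub-cluster, with the library labelled CD40 KO in red left of WT in blue, and the lower grid gives the summed CPM of each gene list per sub-cluster with colour on a log10 scale. Macrophage genes stand at 15419 CPM in sub-cluster 6 and 7288 CPM in sub-cluster 7, and epicardial and mesothelial genes at 3865 CPM in sub-cluster 8.

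Sub-clusters 1, 2 and 3 held at least 12 barcodes of each library, and the libraries were compared within each, again with no test. Whether the members of a sub-cluster are of the same kind in both libraries was not tested, and sub-cluster 2 was not recovered above. In sub-cluster 1, 15.9% of 3442 measured genes were 1.5-fold or more higher and 21.5% lower in the library labelled CD40 KO. In sub-cluster 2 these were 9.79% and 11.9% of 3636 genes, and in sub-cluster 3 12.1% and 17.7% of 3428 genes. The early injury list had 18 of 22 measured genes higher and 1 lower in sub-cluster 1 (median 1.44), 6 of 21 higher and 5 lower in sub-cluster 2 (0.28), and 9 of 20 higher and 1 lower in sub-cluster 3 (0.37). Signals to myeloid cells had 11 of 16 higher and 1 lower in sub-cluster 1 (1.18), 2 of 15 higher and 6 lower in sub-cluster 2 (-0.15), and 5 of 17 higher and 0 lower in sub-cluster 3 (0.34). The median of the early injury list was thus highest in the *Gsn*- and *Pi16*-led sub-cluster, and the difference between sub-clusters was not tested.

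Signs of handling and of other cells moved within the same sub-clusters. Immediate early genes, which tissue digestion switches on, were lower in 13 of 19 and higher in 1 in sub-cluster 1 (median -0.83), with a sum of 18464 CPM in CD40 KO-labelled and 33926 CPM in WT members. They were lower in 8 of 18 and higher in none in sub-cluster 2 (-0.58), and lower in 2 and higher in 2 of 19 in sub-cluster 3 (-0.09). Macrophage genes were higher in 3 of 3 measured in sub-cluster 3 (1.80), with a sum of 834 CPM in CD40 KO-labelled and 231 CPM in WT members. In sub-cluster 1 they were higher in 2 of 5 and lower in none (0.55), and in sub-cluster 2 higher in 1 and lower in 2 of 7 (-0.04). Interferon genes were higher in 6 of 9 and lower in none in sub-cluster 3 (1.47), higher in 2 and lower in 1 of 6 in sub-cluster 1 (0.24), and higher in 1 and lower in 1 of 2 in sub-cluster 2. The part of handling and of macrophage RNA in the other differences within sub-clusters was not tested.

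Single genes did not all share that order. *Mt1* had log2 ratios of 1.95, 1.16 and 2.13 in sub-clusters 1, 2 and 3, and *Il6* of 1.49, 0.39 and 1.43. *Ptgs2* had 1.18, 1.98 and 2.12. In the *Gsn*- and *Pi16*-led sub-cluster 1, 9 of 14 measured genes of the *Pi16* list were lower and none higher (median -0.78). The complement list in sub-cluster 1 had 4 of 8 genes higher and none lower (median 0.92), but in sub-cluster 2 it had 1 of 3 lower (median -0.56). Of the myofibroblast genes, *Acta2* had -1.14, -0.18 and -1.47, while the list medians were 0.17, -0.18 and 0.01. G2 and M phase genes, measured in number in sub-cluster 2, were lower in 6 of 7 there (median -1.31). Sub-cluster 3 ran the other way: the 1 measured G2 and M phase gene was higher (0.96), with a sum of 246 CPM in CD40 KO-labelled and 146 CPM in WT members for the list, and 2 of 3 S phase genes were higher and none lower (1.23). In sub-cluster 1 the 1 measured G2 and M phase gene had a log2 ratio of -0.45 and the 1 measured S phase gene of -0.97.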

How the data were processed

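The deposited files are raw UMI counts per gene and barcode, 1 matrix for each library, written by Cell Ranger 7.0.1 according to the file headers, while the submitters' processing notes name Cell Ranger, STAR and the mm10 genome. The annotation is not given in the sources used. Counts were used as deposited, and no column was left unmapped.

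Barcodes were kept at 1000 UMIs, 500 genes and at most 10% mitochondrial UMIs, and members were found by the 0.3% rule. UMIs were summed over members and over other kept barcodes of each library and scaled to counts per 1000000 UMIs (CPM). Ratios carry exact conditional 95% intervals and shares exact binomial ones, which cover counting error only. Genes with a mean of 50 CPM over the libraries counted as measured, and were called at 1.5-fold. Named were genes of the lists past that fold (a few are not reported here), the 12 highest and 12 lowest ratios of genes at 100 CPM, the 15 highest over other barcodes, and the 5 leading genes of each sub-cluster. Other genes named with values are list members below the fold, given for contrast. Sub-clusters came from Leiden clustering (scanpy 1.11.5, 1000 variable genes, 15 components, 10 neighbours, resolution 0.6) without rule, sex-linked, mitochondrial, ribosomal and haemoglobin genes. In 1 alternative the barcodes with the highest doublet scores were removed, 0.8% per 1000 barcodes. The code was tested on simulated data. The members and lists were chosen with earlier results of these data known. Promoters are from RefSeq on GRCm38.p6.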

Additional observations from a re-analysis of the deposited data

Results flagged for a closer look

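Barcodes outside the depth and mitochondrial limits were in no comparison. Among them 8 of 216 in the library labelled CD40 KO (3.70%, 95% exact interval 1.61% to 7.17%) and 48 of 2530 in the WT library (1.90%, 1.40% to 2.51%) passed the 0.3% share of the 4 collagen and decorin genes. The share was above that of the WT library, and the intervals overlap. All 8 in the library labelled CD40 KO failed on mitochondrial share alone, as did 21 of the 48 in the WT library, while the other 27 WT barcodes had too few UMIs or genes.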

How the results depend on the processing

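No paired analysis was possible because each group has 1 library. Member shares were 0.568% for CD40 KO and 1.21% for WT at a rule share of 1%, 0.530% for CD40 KO and 1.53% for WT without members that held a Ptprc UMI, 1.28% for CD40 KO at a mitochondrial limit of 5%, and 0.706% for CD40 KO without sub-clusters 6 and 7, an alternative chosen after seeing the data. They were below WT in the library labelled CD40 KO under every setting run. Lower genes numbered 558 without members that held a Ptprc UMI. With no CPM minimum 3113 genes were higher, 2852 lower and 2458 enriched over other barcodes, and a 2-fold limit left 107 higher and 54 lower.

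Of 119 named genes past 1.5-fold, 115 to 119 kept their direction under each setting, and 78 (sub-clusters 1, 2 and 3 at equal weight, added after seeing the data) to 119 stayed past the fold. Ratios moved by over 1.5 times for 38 of the 119 with sub-clusters 1, 2 and 3 at equal weight, 32 with equal weight per barcode, 20 of 118 without members that held a Ptprc UMI, and 0 to 10 under the other settings run. The log2 ratios that turned were Ndrg1 at -0.011 (rule share 1%), Fabp5 at 0.068, Lars2 at -0.20, Gfpt2 at -0.19 and Abca8a at -0.047 (equal weight per barcode), Igfbp5 at 0.042 (without the 5 deepest members), Malt1 at -0.0061 (profile of other barcodes subtracted), Ddah1 at 0.19, Lgals7 at 1.29, Abca8a at -0.36 and Ly6a at -0.12 (sub-clusters 1, 2 and 3 at equal weight), and Igfbp5 at 0.23, Lgals7 at 1.74 and Igfbp6 at 0.56 (sub-cluster 8 left out, added after seeing the data). The cause was not tested. One library per group, 76 members and a single barcode with 10.6% of the CD40 KO-labelled UMIs limit all values.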

Other observations

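Ribosomal protein genes leaned higher in CD40 KO-labelled members, with 18 of 86 measured genes at least 1.5-fold higher, 5 lower and a median log2 ratio of 0.17. Over all measured genes 9.09% were higher and 9.89% lower, with a median of -0.07. In the other kept barcodes the same genes had a median of 0.35.

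Several secreted proteins of fibroblasts below the 50 CPM limit, picked after their values were seen, stood well above WT. *Apod*, apolipoprotein D, had 38.8 CPM in CD40 KO-labelled members and 6.96 CPM in WT members, and *Comp*, cartilage oligomeric matrix protein, 15.4 CPM in CD40 KO-labelled and 1.16 CPM in WT members. *C1ra*, a protease of the first complement component, had 59.4 CPM in CD40 KO-labelled members and 30.1 CPM in WT members. The mean over the libraries was below the limit for each. *Lcn2*, lipocalin 2, which withholds iron from bacteria, had 53.4 CPM in CD40 KO-labelled members and 13.7 CPM in WT members.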
